A study of Rattus norvegicus with 6 samples.

Results

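The retinoblastoma (RB) pocket proteins and the E2F transcription factors were followed in doxorubicin-treated rat mesenchymal stem cells that then received a preparation called SMNV or its vehicle. Mesenchymal stem cells are stromal precursors of the bone, cartilage and fat lineages. The rule named 10 genes (Rb1, Rbl1, Rbl2, E2f1, E2f2, E2f3, E2f4, E2f6, E2f7 and E2f8) and took the rows of the deposited count table whose gene symbol matched. It found 9 of the 10 among 30560 rows, and all 9 passed the filter on low counts that left 12614 tested genes. No row carried the symbol E2f1. The row ENSRNOG00000016708 carries the symbol Necab3, while its description, protein match, orthology entry and Entrez number are those of E2F1. It is reported here beside the 9 as the E2F1-annotated row. Necab3 and E2f1 lie next to each other in the RefSeq gene table, and reads of Necab3 in this row cannot be told apart from reads of E2f1.

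All cells were labelled wild type and were exposed to 200 nM doxorubicin, an anthracycline that damages DNA, for 24 hours, which the labels describe as inducing senescence. In the 6 days that followed, in fresh medium, the SMNV group (3 libraries) received 100 µg/ml SMNV and the Dox group (3 libraries) received vehicle. The labels do not say what the letters SMNV stand for, what tissue or strain the cells came from, or whether the libraries of a group came from separate cultures, so the p-values measure the spread between these libraries, which may be technical. Cells that never met doxorubicin were not analysed here, so the level of these genes before the damage is not known.

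As known mainly from mouse and human cells, the pocket proteins RB (Rb1), p107 (Rbl1) and p130 (Rbl2) bind E2F factors and hold back the genes that drive entry into S phase. Cyclin-dependent kinases (CDKs) phosphorylate them and release E2F, CDK inhibitors prevent this, and lasting RB activity is a known feature of senescent cells. E2F1, E2F2 and E2F3 are known as activators, E2F4 works mostly with p107 and p130 as a repressor, and E2F6, E2F7 and E2F8 repress without a pocket protein. E2F7 and E2F8, the atypical members, bind DNA without a DP partner and are themselves E2F target genes that close the wave of S-phase transcription.

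Promoter sequences bear on these genes because several of them are known targets of the family. RefSeq (build GRCr8) gave a promoter for 6 of the 10, namely Rb1, Rbl1, Rbl2, E2f3, E2f6 and E2f7. The 250 bases before the start were searched on both strands for the E2F core, spelled TTCCCGC or else TTCGCGC or else TTGGCGC, and for the CHR element TTTGAA, through which the p107 and p130 repressor complex also acts. An E2F core was present in 4 of the 6 and in 6.04% of all 33469 promoters of the same length. A CHR was present in E2f3 among the 6, and in 16.2% of all promoters. The 4 promoters that hold an E2F core are shown 5′ to 3′ on the gene's strand, with the E2F core in capitals in each and the CHR also in capitals in E2f3.
E2f7 promoter (chr7:48036653-48036902, plus strand): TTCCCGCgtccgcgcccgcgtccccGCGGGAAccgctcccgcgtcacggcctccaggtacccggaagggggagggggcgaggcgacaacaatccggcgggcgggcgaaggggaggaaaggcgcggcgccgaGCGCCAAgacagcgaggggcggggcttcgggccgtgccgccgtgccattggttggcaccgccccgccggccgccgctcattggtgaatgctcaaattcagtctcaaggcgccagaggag
Rb1 promoter (chr15:54911858-54912107, minus strand): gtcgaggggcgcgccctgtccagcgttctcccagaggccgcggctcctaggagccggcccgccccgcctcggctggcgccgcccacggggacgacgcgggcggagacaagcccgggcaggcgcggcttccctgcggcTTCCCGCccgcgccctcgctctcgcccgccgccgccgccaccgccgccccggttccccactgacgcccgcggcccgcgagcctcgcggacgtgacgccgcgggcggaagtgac
E2f3 promoter (chr17:34810166-34810415, plus strand): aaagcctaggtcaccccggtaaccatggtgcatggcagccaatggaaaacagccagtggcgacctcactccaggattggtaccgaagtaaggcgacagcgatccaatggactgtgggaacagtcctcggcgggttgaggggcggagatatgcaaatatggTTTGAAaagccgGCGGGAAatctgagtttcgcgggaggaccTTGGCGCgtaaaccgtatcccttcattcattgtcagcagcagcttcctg
Rbl1 promoter (chr3:166289377-166289626, minus strand): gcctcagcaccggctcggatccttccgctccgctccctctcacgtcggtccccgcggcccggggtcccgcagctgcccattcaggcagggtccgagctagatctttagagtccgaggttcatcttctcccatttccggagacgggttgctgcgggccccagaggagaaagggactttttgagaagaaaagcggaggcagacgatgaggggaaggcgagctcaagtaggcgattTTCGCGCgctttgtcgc
In E2f7 the core occurred 3 times, at 250 to 244, 225 to 219 and 119 to 113 bases before the start. Rb1 held it at 113 to 107 bases, and Rbl1 at 17 to 11 bases, before the start. E2f3 held it at 78 to 72 and 49 to 43 bases, and its CHR lay at 90 to 85 bases. The letters do not overlap in any of these promoters. They are matches of letters, and binding was not measured. The E2f3 locus is known to have separate promoters, and which of them was searched was not determined.

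The family moved in both directions. Among the 9 genes, 2 rose in SMNV cells (E2f7 and E2f8), 4 fell (Rb1, Rbl2, E2f3 and E2f6) and 3 did not pass (Rbl1, E2f2 and E2f4). The test was edgeR's quasi-likelihood test with Benjamini-Hochberg adjustment over all tested genes and a threshold of 0.05. With the same test 60.4% of all tested genes changed, 30.5% higher and 29.9% lower, so 6 changed genes among 9 is close to the background share. The median log2 fold change of the 9 was 0.04, beside -0.01 over the tested genes as a whole, with a range of -0.61 to 0.85. The E2F1-annotated row rose too. All changes were below 2-fold.

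**Figure D1:**
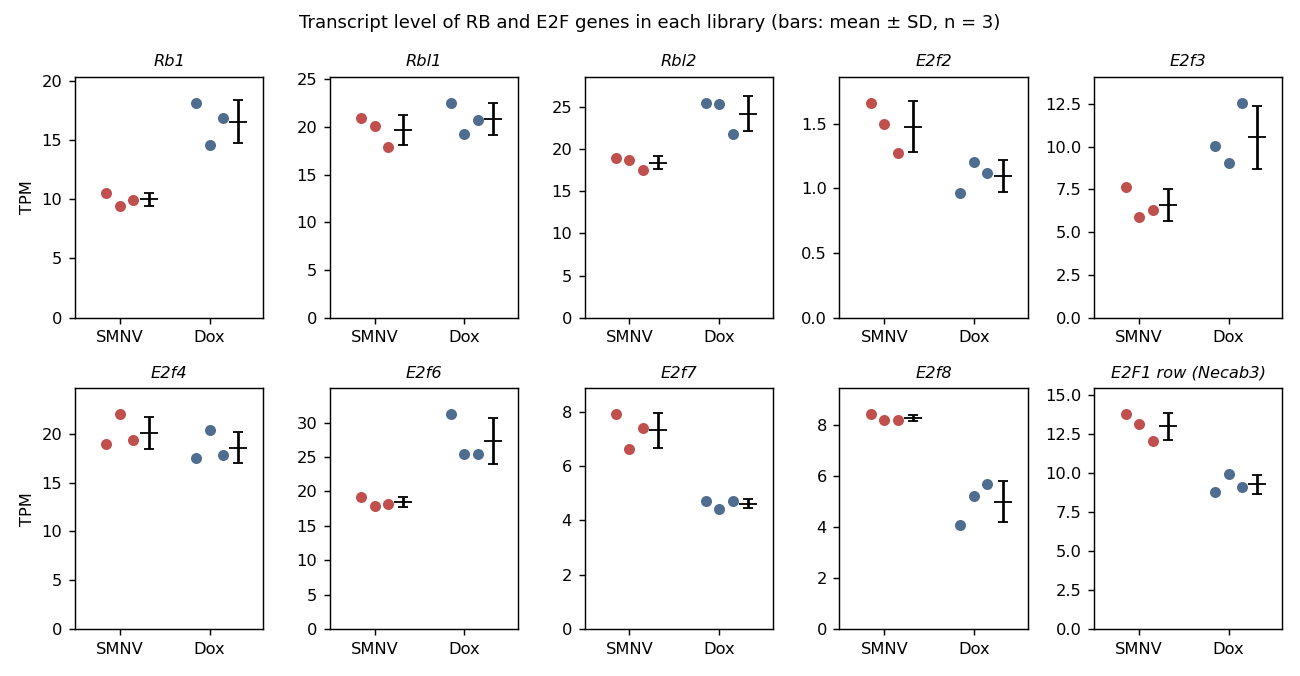
Transcript level in TPM (the authors' length-scaled values) of the 9 genes and the E2F1-annotated row in each library, SMNV at the left and Dox at the right of each panel; points are libraries, bars are mean ± SD (n = 3), and each panel has its own vertical axis starting at 0. Rb1 lies at 9.46 to 10.57 TPM in SMNV and 14.63 to 18.17 in Dox, and E2f8 at 8.20 to 8.41 and 4.08 to 5.66.

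Among the pocket proteins Rb1 fell the furthest. Rb1 (ENSRNOG00000016029), which encodes RB itself, had 27.6, 26.1 and 27.4 CPM in the SMNV libraries, against 45.3, 36.5 and 42.3 CPM in the Dox libraries. Every SMNV library was below every Dox library, and the SMNV values were closer together than the Dox values. Its log2 fold change was -0.61 ± 0.09 (SE, edgeR adjusted p = 4.3e-05), which makes Rb1 1.53-fold lower in SMNV. CPM here are TMM-normalized counts as a rate of the library's effective total, with n = 3 per group throughout.

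Rbl2 (ENSRNOG00000012153), which encodes p130, the pocket protein most abundant in resting cells, fell less. It had 50.8, 53.2 and 49.5 CPM in SMNV, against 65.3, 65.2 and 56.0 CPM in Dox. The groups did not overlap, although Dox 3 came near the SMNV values. For Rbl2 the log2 fold change was -0.28 ± 0.08 (SE, edgeR adjusted p = 0.0057).

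Rbl1 (ENSRNOG00000006921), which encodes p107 and is itself a known E2F target, had 44.7, 45.5 and 40.2 CPM in SMNV and 45.8, 39.1 and 42.2 CPM in Dox. The ranges overlapped almost completely. Its log2 fold change of 0.04 ± 0.09 (SE, edgeR adjusted p = 0.74) did not pass, and its sign was negative on the TPM scales and without Dox 2.

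The make-up of the pocket proteins differed between the groups on the TPM scale, which corrects for length and lets genes be compared. Rb1 made up 20.9%, 19.6% and 21.9% of the summed pocket-protein TPM in SMNV, against 27.4%, 24.7% and 28.5% in Dox. Rbl1 made up 41.5%, 41.7% and 39.4% in SMNV, against 34.0%, 32.4% and 34.8% in Dox. For neither gene did the shares overlap between groups, while those of Rbl2 did, at 37.6% to 38.8% in SMNV and 36.7% to 42.9% in Dox. Rbl1 was thus the most abundant pocket transcript in every SMNV library, and Rbl2 was in every Dox library. The margin was small in SMNV 3, with Rbl1 at 17.9 and Rbl2 at 17.5 TPM. It was also small in Dox 3, with Rbl2 at 21.8 and Rbl1 at 20.7 TPM. The summed pocket TPM was 48.1 ± 2.57 in SMNV and 61.6 ± 3.97 in Dox (SD, n = 3). TPM carries no TMM scaling, and the log2 fold change of the median tested gene was -0.10 on log2(TPM + 1), against -0.01 with edgeR. Part of the lower sum in SMNV may thus lie in the scale, which was not tested. These shares are descriptions with no test. In bulk RNA, a change in the number of cells with a transcript and a change in transcript per cell cannot be told apart, which holds for every level given here.

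**Figure D2:**
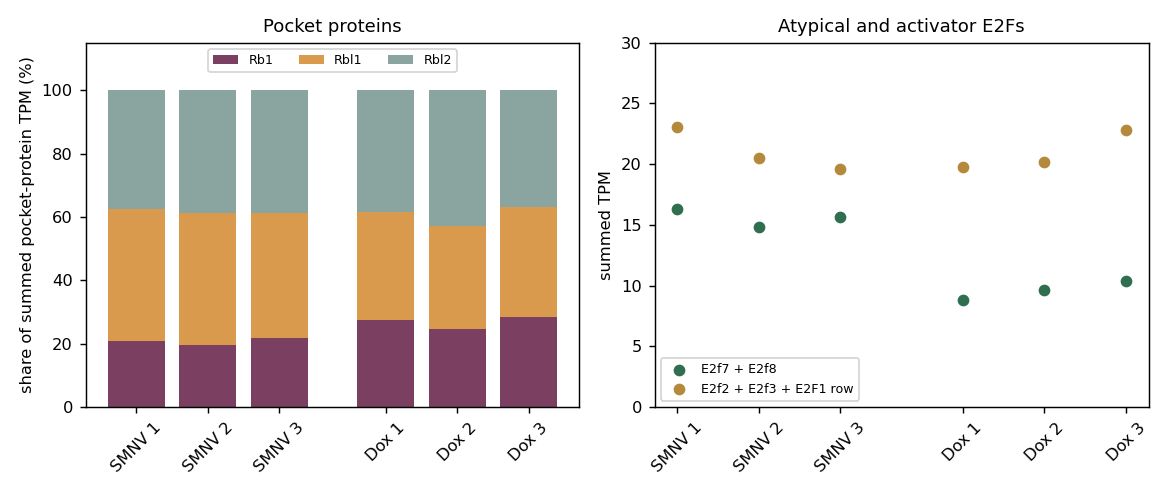
Left: in SMNV then Dox, share of each pocket protein gene in their summed TPM (%) in each library, as stacked bars from 0. Right: summed TPM of E2f7 and E2f8 (green points) and of E2f2, E2f3 and the E2F1-annotated row (ochre points) in each library. The green sum lies at 14.8 to 16.3 TPM in SMNV and 8.80 to 10.4 in Dox, while the ochre sums of the groups overlap.

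Of the activator E2Fs found by symbol, E2f3 fell and E2f2 did not pass. E2f3 (ENSRNOG00000029273), whose locus is known to give a longer and a shorter protein from separate promoters, had 6.90, 5.86 and 5.60 CPM in SMNV, against 8.82, 7.79 and 9.76 CPM in Dox. The groups did not overlap. The log2 fold change of E2f3 was -0.52 ± 0.15 (SE, edgeR adjusted p = 0.0064), and its counts were low, between 111 and 198 per library.

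E2f2 (ENSRNOG00000047741) had the lowest level of the family, with 56, 56 and 44 counts in SMNV and 31, 36 and 36 counts in Dox. That is 2.74, 2.62 and 2.22 CPM in SMNV, against 1.51, 1.89 and 1.77 CPM in Dox. Every SMNV value was above every Dox value, yet the log2 fold change of 0.55 ± 0.24 (SE, edgeR adjusted p = 0.055) did not pass. At this depth the SE of E2f2 was more than that of any other gene in the family.

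The E2F1-annotated row had 22.6, 22.8 and 20.7 CPM in SMNV, against 13.7, 15.4 and 14.3 CPM in Dox. The groups were well apart relative to the spread within each. Its log2 fold change was 0.60 ± 0.10 (SE, edgeR adjusted p = 8.3e-05), 1.52-fold higher in SMNV. In TPM the row stood above E2f3 in every SMNV library, at ratios of 1.81, 2.25 and 1.91, and in Dox the ratios were 0.875, 1.10 and 0.727. The summed TPM of E2f2, E2f3 and this row was 21.1 ± 1.79 in SMNV and 20.9 ± 1.64 in Dox (SD, n = 3). The sums of the groups overlapped, while E2f3 fell and the E2F1-annotated row rose.

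E2f4 (ENSRNOG00000015708), the main partner of p107 and p130, had 19.6, 24.0 and 21.0 CPM in SMNV, against 17.3, 20.0 and 17.5 CPM in Dox. The groups overlapped, because SMNV 1 lay just below Dox 2. E2f4 had a log2 fold change of 0.24 ± 0.11 (SE, edgeR adjusted p = 0.062). This call depended on the setting: it passed without a filter (adjusted p = 0.0478), without SMNV 1 (0.0350) and without Dox 2 (0.0313), and on log2(TPM + 1) the value was 0.11 (adjusted p = 0.340, limma).

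Of the repressors that act without a pocket protein, the atypical pair rose. E2f8 (ENSRNOG00000022537) had 24.1, 24.8 and 24.8 CPM in SMNV, against 11.2, 14.3 and 15.5 CPM in Dox. The SMNV libraries were nearly alike, and the lowest of them was far above the highest Dox library. The log2 fold change of E2f8 was 0.85 ± 0.11 (SE, edgeR adjusted p = 1.5e-05), a 1.80-fold rise.

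E2f7 (ENSRNOG00000026252) had 23.5, 20.8 and 23.2 CPM in SMNV, against 13.4, 12.6 and 13.5 CPM in Dox. Here too the groups were far apart. The log2 fold change of E2f7, whose promoter above holds 3 E2F cores, was 0.78 ± 0.10 (SE, edgeR adjusted p = 8.6e-06). The TPM of E2f7 and E2f8 together came to 16.3, 14.8 and 15.6 in SMNV, against 8.80, 9.64 and 10.4 in Dox. Set against the summed TPM of E2f2, E2f3 and the E2F1-annotated row, this pair stood at a ratio of 0.742 ± 0.0475 in SMNV and 0.460 ± 0.0172 in Dox (SD, n = 3).

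E2f6 (ENSRNOG00000004449), which represses through a Polycomb complex, moved the other way. It had 21.9, 21.3 and 21.7 CPM in SMNV, against 33.6, 27.2 and 27.4 CPM in Dox. The groups did not overlap, and Dox 1 was the highest library. E2f6 had a log2 fold change of -0.44 ± 0.10 (SE, edgeR adjusted p = 0.0012). Its promoter and that of Rbl2, which also fell, held neither motif in the window searched. Those of Rb1 and E2f3, which fell as well, and of Rbl1, which did not pass, held an E2F core. For E2f8 there was no promoter sequence.

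**Figure D3:**
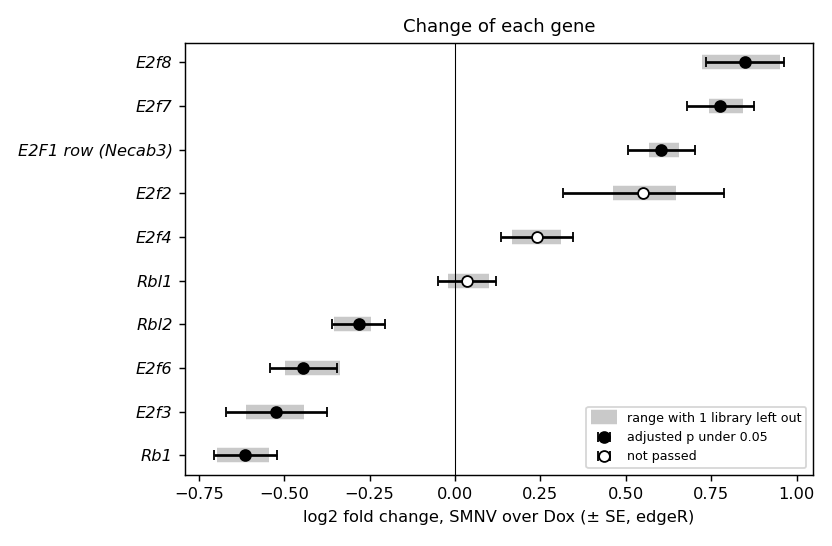
Log2 fold change of SMNV over Dox for each gene, ordered by value; points are edgeR estimates with SE bars, filled where the adjusted p was under 0.05, and grey bands span the values with 1 library left out. E2f8, E2f7 and the E2F1-annotated row lie at 0.60 to 0.85 and Rb1, E2f3, E2f6 and Rbl2 at -0.61 to -0.28, with no grey band of these crossing 0.

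The order of the levels changed as well. On the TPM scale the order in SMNV, from the top, was E2f4 (20.1 ± 1.65), Rbl1 (19.7 ± 1.58), E2f6 (18.5 ± 0.705) and Rbl2 (18.4 ± 0.775), whose values overlap, then the E2F1-annotated row (13.0 ± 0.889) and Rb1 (10.00 ± 0.556). Below them came E2f8 (8.27 ± 0.121), E2f7 (7.32 ± 0.650) and E2f3 (6.60 ± 0.924), of which E2f7 and E2f3 overlapped, and E2f2 (1.48 ± 0.196) was last. In Dox, E2f6 (27.4 ± 3.36) and Rbl2 (24.3 ± 2.12) stood first and overlapped, followed by Rbl1 (20.8 ± 1.66), E2f4 (18.6 ± 1.58) and Rb1 (16.6 ± 1.80), each overlapping its neighbour. E2f3 (10.5 ± 1.82) and the E2F1-annotated row (9.29 ± 0.591) overlapped, as did E2f8 (4.98 ± 0.814) and E2f7 (4.63 ± 0.170), and E2f2 (1.09 ± 0.122) was last again (TPM, mean ± SD, n = 3). The E2F1-annotated row thus stood above Rb1 in every SMNV library and below it in every Dox library, with a ratio of Rb1 to that row of 0.770 ± 0.0551 in SMNV and 1.80 ± 0.302 in Dox (SD, n = 3).

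The counts and the TPM of E2f3 did not keep a constant relation. The gene length implied by counts over TPM, scaled so that the median tested gene had its listed length, was 1752, 1835 and 1630 bases for E2f3 in SMNV and 1783, 1755 and 1577 bases in Dox. The listed length is 2173 bases. These values did not separate the groups but varied between libraries, with SDs of 103 bases in SMNV and 111 bases in Dox. For the other genes of the family the SD within a group was at most 15.2 bases. The sources used here do not say how the authors derived TPM, so the TPM of E2f3 is less certain than its counts. That limit also holds for the ratios, sums and order above that use the TPM of E2f3.

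Gene length moved with the comparison across the whole table. With the tested genes split into 5 bins by length, the longest bin began at 4432 bases. There the median log2 fold change was -0.14 and 42.5% fell while 24.1% rose. In the shortest bin the median was 0.12, with 18.2% falling and 36.0% rising. Rb1 (4693 bases) and Rbl2 (4863 bases), which fell, and E2f7 (5226 bases) and E2f8 (5123 bases), which rose, all lie in the longest bin. E2f3 (2173 bases) and E2f6 (2153 bases), which fell, lie in the next to shortest bin, where the median was 0.07. With the length trend taken out as an offset, a setting chosen after the data were seen, Rb1 stood at -0.57, Rbl2 at -0.24, E2f3 at -0.59, E2f6 at -0.52, E2f7 at 0.83 and E2f8 at 0.90, and the same 6 genes passed.

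**Figure D4:**
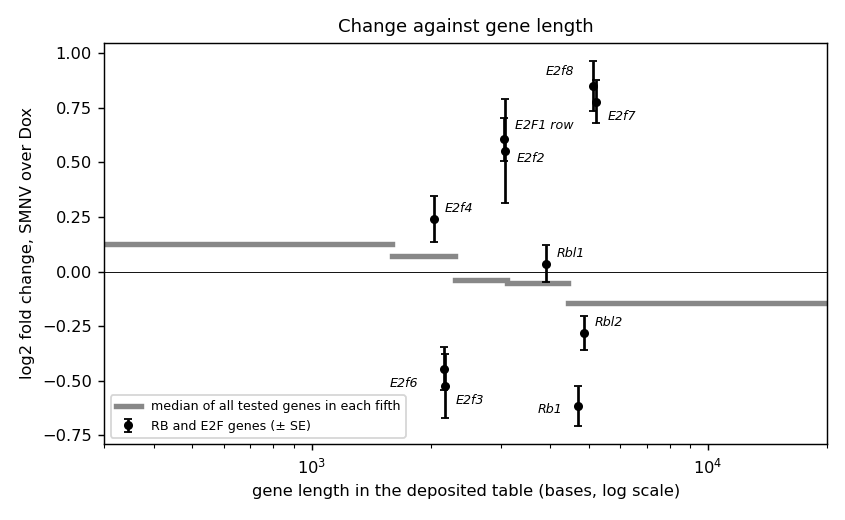
Log2 fold change of SMNV over Dox against the gene length in the deposited table (bases, log scale) for the 9 genes and the E2F1-annotated row (points, ± SE); grey bars are the median of all tested genes in each of 5 length bins, with the outer bars running past the axis. E2f7 and E2f8 lie above and Rb1 and Rbl2 below the median of -0.14 in the longest bin.

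Estimated counts per library ran from 18640909 to 21506967, of which each of the 9 genes received 31 to 1340. CPM correlated at 0.989 to 0.992 within a group and 0.947 to 0.969 between groups (Pearson r of log2 CPM). The top 10 genes by count held 17.8% to 19.4% of the total in SMNV and 14.4% to 15.2% in Dox, and a 28S ribosomal RNA row stood at 31.3 to 124 CPM in SMNV and 1.25 to 5.93 CPM in Dox, without TMM scaling. The part of either in the results was not tested. Where log2(TPM + 1) was tested with limma, 39.8% of called genes were higher in SMNV, against 50.4% with edgeR on counts. The median gene then stood at -0.10, while the same 6 family genes passed in the same directions. Of 9 mesenchymal markers, 8 were above 1 TPM in every library, and Nt5e, which encodes the defining marker CD73, stood at 0.89 to 1.46 TPM. The mesenchymal list summed to 28097 to 35018 TPM in SMNV and 18358 to 21062 TPM in Dox, but its genes moved in both directions. Col1a1, Col1a2, Vim and Pdgfrb were higher in every SMNV library than in any Dox library. Thy1, Cd44 and Itgb1 were lower in every SMNV library than in any Dox library, and Eng and Nt5e overlapped. Of 14 markers of other cells, Ptprc, Cd34, Cdh5, Kdr, Cd3e and Adgre1 were listed at 0 TPM in every library, and the whole list summed to 1666 to 1720 TPM in SMNV and 1857 to 2173 TPM in Dox. The list apart from Acta2 and Pdgfra, which stromal cells also express, summed to 4.17 to 4.67 TPM in SMNV and 3.29 to 4.29 in Dox. The part of either list in the results was not tested.

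The rest of the pathway was read from lists of known family partners and targets. Of the DP partners, which most E2Fs need to bind DNA, Tfdp1 rose by 0.39 ± 0.08 and Tfdp2 was at 0.10 ± 0.10 (SE, edgeR adjusted p = 5.1e-04 and 0.41). The MuvB core joins p130 and E2F4 in the repressor complex DREAM, and later the activators B-MYB (Mybl2) and FOXM1, which are not part of DREAM. Of 7 genes of the core and these activators, 4 rose, 1 fell and 2 did not pass, beside 60.4% of all tested genes called, 30.5% higher and 29.9% lower. Both activators rose, Foxm1 by 1.21 ± 0.10 and Mybl2 by 0.70 ± 0.10 (SE). The core subunit Lin37 rose by 0.80 ± 0.20 and Rbbp4 fell by 0.29 on the log2 scale. Lin9 was higher by 0.28 ± 0.10 and lost its call on both TPM scales and without SMNV 1, Dox 2 or Dox 3.

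Among 11 genes of the Polycomb complex that E2F6 joins, 4 fell, 2 rose and 5 did not pass, which is near the 29.9% lower and 30.5% higher among all tested genes. Those that fell were Mga, the scaffold of that complex, by 0.53, Hdac1 by 0.38, Rnf2 by 0.36 and Rybp by 0.25 on the log2 scale. Max, the partner of Mga on DNA, rose by 0.37 ± 0.08 (SE).

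Upstream of RB, 2 of 9 G1 cyclins and kinases rose, 2 fell and 5 did not pass, beside 60.4% of all tested genes called. Cyclin D3 (Ccnd3) rose by 0.77 ± 0.09 and Cdk4 by 0.41 ± 0.07 (SE), while Ccnd2 fell by 0.63 and Ccne2 by 0.62 on the log2 scale. Ccnd1 was at -0.14 ± 0.07 (SE, edgeR adjusted p = 0.092). It passed as lower on both TPM scales, without Dox 1 and with the length offset. Of 7 CDK inhibitors, Cdkn1a fell by 1.34 on the log2 scale, 5 rose and Cdkn2b did not pass, beside 30.5% higher among all tested genes. The INK4 genes Cdkn2c and Cdkn2d, whose products hold Cdk4 and Cdk6 inactive, rose by 1.21 ± 0.10 and 2.03 ± 0.14 (SE). Cdkn2a rose by 2.22 ± 0.33 (SE), read for the gene as a whole, so its different transcripts cannot be told apart. Cdkn2a was low, at 3.54 ± 0.932 CPM in SMNV and 0.752 ± 0.341 CPM in Dox (SD, n = 3). Cdkn1b rose by 0.93 ± 0.10, and Cdkn1c by 1.33 ± 0.44 (SE). Cdkn1c averaged 0.984 ± 0.436 CPM in SMNV and 0.385 ± 0.0382 CPM in Dox (SD, n = 3), and its call was lost without SMNV 3 or Dox 3. Cdkn2b passed as lower on both TPM scales.

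Downstream, 23 of 44 G1/S target genes of E2F rose, 7 fell and 14 did not pass, with a median log2 fold change of 0.22. Over all tested genes 30.5% were higher and 29.9% lower, with a median of -0.01. Tk1 (1.25 ± 0.07), Ccna2 (1.11 ± 0.08), Fen1 (0.93 ± 0.09), Mcm2 (0.85 ± 0.07) and Dut (0.84 ± 0.09) had the smallest p of the list (log2 fold change ± SE). Of 24 G2/M genes known as CHR targets all rose, beside the same 30.5%, with a median of 1.41 and a range of 0.60 to 2.47. The mitotic kinase Plk1 rose by 2.47 ± 0.08, the kinesin Kif20a by 1.58 ± 0.06, and the mitotic cyclins Ccnb2 by 1.95 ± 0.08 and Ccnb1 by 1.61 ± 0.07 (SE). Foxm1, Mybl2, Cdc20, Ccne1, Ccne2 and Cdc25a each stand in more than 1 of these lists. Of 8 tested apoptosis genes that E2F1 is known to induce, 3 rose, 3 fell and 2 did not pass, beside 30.5% higher and 29.9% lower among all tested genes. Bbc3 rose by 1.68 ± 0.23 and Casp9 by 0.72 ± 0.12 (SE), and among those lower Casp8 fell by 0.52 and Apaf1 by 0.36 on the log2 scale. Among 9 genes of E2F and RB turnover, 5 rose, 3 fell and 1 did not pass, beside 30.5% higher and 29.9% lower among all tested genes. They included Ccnf, whose product, cyclin F, marks activator and atypical E2Fs for degradation, up by 1.57 ± 0.10, the APC/C inhibitor Fbxo5 by 0.74 ± 0.10, its activators Fzr1 by 2.21 ± 0.11 and Cdc20 by 2.47 ± 0.08 (SE), and Mdm2, a ligase that binds RB, down at -1.94 ± 0.07.

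**Figure D5:**
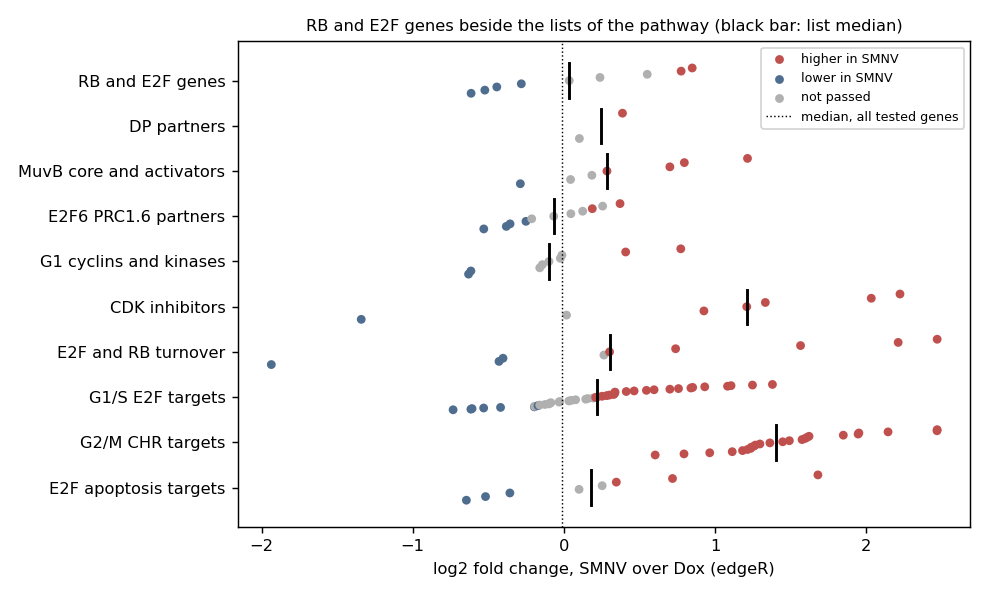
Log2 fold change of SMNV over Dox for every tested gene of the 9 RB and E2F genes and of 9 lists of their pathway; points are genes, coloured by call, black bars are list medians and the dotted line is the median of all tested genes (-0.01). The RB and E2F genes spread on both sides of 0, while all 24 G2/M genes lie at or above 0.60.

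Over the 6 libraries, the genes whose log2 CPM followed that of Rb1 most closely were Eif2s3x, Naa15 and Mier1 (Pearson r of 0.9998, 0.9988 and 0.9978). For E2f8 they were Maf1, Rcc1 and Ercc2 (0.9993, 0.9992 and 0.9990), for E2f7 Fnbp4, Cactin and Tbcc (0.9972, 0.9971 and 0.9963), and for the E2F1-annotated row Gtf3c2, Rnaseh2a and Lig1 (0.9986, 0.9969 and 0.9965). All of these r span both groups of libraries, and r was over 0.95 with Rb1 for 1277, and with E2f8 for 1564, of 9554 genes compared.

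With each library left out in turn, the log2 fold change of Rb1 ranged from -0.70 to -0.54, of Rbl2 from -0.35 to -0.24, of E2f3 from -0.61 to -0.44 and of E2f6 from -0.50 to -0.34. That of E2f7 ranged from 0.74 to 0.84 and that of E2f8 from 0.72 to 0.95. All of these passed in every such fit. For 7 of the 9 genes, all but Rbl1 and E2f4, no CPM value of SMNV fell within the range of Dox, which held for 66.9% of the tested genes.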

How the data were processed

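Poly(A) RNA from rat mesenchymal stem cells was sequenced in 6 libraries, with libraries made by the VAHTS Universal V6 kit per the labels' protocols. Tools listed in the submitters' processing notes are HISAT2, fastp and HTSeq, with the build mRatBN7.2. No version, role or strand setting is stated there, so antisense or overlapping reads cannot be told apart. The authors deposited estimated counts per gene, not normalized (17.9% to 18.8% of the values above 0 have decimals), and TPM, length-scaled, summing to the same total in each library per the file values. Counts were rounded; the design had assumed whole counts, and its test was kept. Here edgeR 4.0.16 (R 4.3.3) was run with filterByExpr, TMM factors and a quasi-likelihood test on group alone, two-sided, adjusted over all tested genes. SE is the absolute log2 fold change over the square root of F. Alternatives used limma 3.58.1 and DESeq2 1.42.0, other scalings, no filter, log2(TPM + 1) and log2(TPM + 0.1), a block and left-out libraries. Intervals of counting error are not given; SDs are between libraries. The fit was tested on simulated data.

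Members and lists were chosen with earlier results of these data known. The text names every member, all DP partners and CDK inhibitors, and up to 5 genes of each other list with the smallest p, some of which are not reported here. Likeness used tested genes with a symbol and a mean of at least 5 CPM. Where a symbol had several rows, the row with the most counts was read. Hrk and the marker Hbb were not analysed here, and Tp73 was below the filter. Promoters came from RefSeq (GRCr8), by symbol.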

Additional observations from a re-analysis of the deposited data

How the results depend on the processing

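Across 15 alternatives, 132 of 135 values of the 9 RB and E2F genes kept their side of the threshold, and the other 3 were E2f4 passing as higher. No called gene of the family lost its call or changed sign. The E2F1-annotated row passed in all 15 (log2 fold change 0.44 to 0.66). The genes called among the 9 numbered 6, or 7 without a filter, without SMNV 1 or without Dox 2 through E2f4, and 6 to 7 over the fits that leave out a library. Over all genes, 7614 were called, 6635 to 7454 without 1 library, 7255 with DESeq2 and 7730 on log2(TPM + 1). Of 645 values of 43 other named genes, 7 lost and 6 gained a call and none reversed. Replicate numbers are shared by the groups, but same-numbered libraries did not deviate together (r of 0.00764, -0.116 and 0.00165); with the replicate block 7387 genes and 6 of the 9 were called. Depth limits E2f2 most, at 31 to 56 counts, and then E2f3. A fit without 1 library leaves 2 in a group.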
